A study of Mus musculus with 24 samples.

Results

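The genes described here mark nonclassical monocytes, the Ly6C low monocytes of the mouse: Ace, Adgre4, Spn, Cd9, Itgax, Pglyrp1, Eno3, Ear2, and Pparg. The rule took every row of the deposited expression table that carried 1 of these 9 names, and 8 of the 9 had a row, of 23930 rows in all. Ear2, an eosinophil-associated ribonuclease, was not analysed here. The names were set without using the values of the table, although earlier results of these data were known when they were proposed.

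Splenic monocytes of 3 genotypes (WT, Slc29a3-/-, and Slc29a3-/- Tlr7-/-) had been sorted into 2 subsets, Ly6C hi and Ly6C low, and their RNA sequenced. Each of the 6 groups has 4 libraries, which makes 24 libraries. WT mice were purchased C57BL/6 mice. Both mutants were made by CRISPR/Cas9 on that background and carry their mutations in every cell, a stop codon inserted into an early exon of Slc29a3, which encodes a lysosomal nucleoside transporter, and a small deletion in an exon of Tlr7, which encodes an endosomal RNA sensor. No group received a treatment, and the age and sex of the mice used for sequencing are not given in the sources used here. After magnetic removal of T, B, NK, neutrophil, and erythroid cells, CD11b+ NK1.1- Ly6G- cells were sorted as Ly6C low with high Fcgr4 protein or as Ly6C hi with low Fcgr4 protein. The labels call the cells macrophages and the paper calls them monocytes. The labels do not say that the libraries of a group came from separate mice, so each P value measures the spread between these samples, which may be technical.

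Ly6C low monocytes arise from Ly6C hi monocytes and patrol the inner wall of blood vessels, where they take up particles and dying cells. Their development depends on the nuclear receptor Nr4a1, and they carry a surface that differs from that of Ly6C hi monocytes, rich in Spn (CD43), Itgax (CD11c), and the Fc receptor Fcgr4. The genes described here include membrane proteins (Ace, Adgre4, Spn, Cd9, and Itgax), a secreted antibacterial protein (Pglyrp1), a glycolytic enzyme (Eno3), and a nuclear receptor of lipid metabolism (Pparg).

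Each value is the reads of 1 short PCR product (amplicon) of a gene, scaled to 1000000 reads per library (RPM). Because amplicons differ in how well they amplify, levels are compared between groups and not between genes. The libraries held an estimated 12311115 to 14572069 reads, and 0 reads allows up to 3 reads, or 0.206 to 0.244 RPM, by counting error alone. A gene was called higher or lower where the fold change exceeded 1.5 and the Benjamini-Hochberg adjusted P of limma, over all genes tested, was under 0.05. Fold changes are on the log2(RPM + 1) scale, which understates those of genes with low values, and each is given with its standard error (SE).

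The labels held for the sort: Fcgr4 averaged 33.6 ± 6.14 RPM in Ly6C hi and 744 ± 95.3 RPM in Ly6C low WT monocytes (SD, n = 4 each). Of the markers of Ly6C hi monocytes, F13a1 was read at 969 to 3323 RPM in the 12 Ly6C hi and 1.11 to 46.9 RPM in the 12 Ly6C low libraries, and Vcan at 81.7 to 508 RPM and 0 to 2.88 RPM. Ccr2 was read at 132 to 1783 RPM and 1.76 to 223 RPM, with overlap between libraries of different genotypes. Slc29a3 and Tlr7 amplicons were read in all genotypes and do not check the genotype labels, because an amplicon outside the mutated bases reads mutant transcripts too. WT replicates 1 to 3 of both subsets stood apart from WT replicate 4. In depth they also stood apart from all mutant libraries, at an estimated 14237197 to 14572069 reads. WT replicate 4 and the mutant libraries held an estimated 12311115 to 13048431 reads. The part of this split in the differences between mutants and WT was not tested. Between pairs of WT replicates 1 to 3, the median absolute difference over 7492 genes was 0.10 to 0.21 on the log2 scale, and between WT replicate 4 and the others 0.26 to 0.46. Between libraries of the same mutant group it was 0.14 to 0.58, a range that holds the values of WT replicate 4. All 8 genes had WT replicate 4 outside the range of replicates 1 to 3 in both subsets. The share of all genes that did so was not computed. Values against WT replicate 4 alone are given beside the calls they change, with its spread taken as that of the other groups. With this single WT library, fewer of all genes were called in each comparison with WT.

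Promoter sequences are shown for Pparg and Eno3, which differed most between the WT subsets, and for Cd9 and Pglyrp1, whose difference between the subsets was absent from the calls in Slc29a3-/- mice. They run from 250 bases before to 50 bases after a transcription start of RefSeq on GRCm38.p6, 5′ to 3′ on the strand named. Capitals mark, on either strand, AGGTCA (the half-site of nuclear receptors such as PPARγ and its partner RXR), GAGGAA (the core bound by the myeloid factor PU.1), and CACCC (the core bound by KLF factors).
Pparg, chr6:115362099-115362398, plus strand: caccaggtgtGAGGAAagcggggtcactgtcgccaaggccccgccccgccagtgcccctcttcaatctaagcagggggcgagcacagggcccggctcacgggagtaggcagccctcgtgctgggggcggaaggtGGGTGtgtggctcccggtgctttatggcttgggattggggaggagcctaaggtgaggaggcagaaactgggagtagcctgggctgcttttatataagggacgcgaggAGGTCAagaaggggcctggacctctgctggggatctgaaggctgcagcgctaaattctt
Eno3, chr11:70656926-70657225, plus strand: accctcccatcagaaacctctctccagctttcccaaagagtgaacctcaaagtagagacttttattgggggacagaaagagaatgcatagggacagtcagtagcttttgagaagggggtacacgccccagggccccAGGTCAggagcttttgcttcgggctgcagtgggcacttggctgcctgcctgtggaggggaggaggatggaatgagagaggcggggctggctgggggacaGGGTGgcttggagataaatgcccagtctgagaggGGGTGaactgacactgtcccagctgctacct
Cd9, chr6:125494711-125495010, minus strand: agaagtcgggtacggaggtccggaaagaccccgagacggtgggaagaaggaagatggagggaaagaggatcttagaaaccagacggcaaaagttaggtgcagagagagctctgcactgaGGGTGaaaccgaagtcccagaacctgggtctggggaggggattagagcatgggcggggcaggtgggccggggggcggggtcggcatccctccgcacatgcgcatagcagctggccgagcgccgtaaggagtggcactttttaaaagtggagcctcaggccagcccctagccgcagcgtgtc
Pglyrp1, chr7:18884440-18884739, plus strand: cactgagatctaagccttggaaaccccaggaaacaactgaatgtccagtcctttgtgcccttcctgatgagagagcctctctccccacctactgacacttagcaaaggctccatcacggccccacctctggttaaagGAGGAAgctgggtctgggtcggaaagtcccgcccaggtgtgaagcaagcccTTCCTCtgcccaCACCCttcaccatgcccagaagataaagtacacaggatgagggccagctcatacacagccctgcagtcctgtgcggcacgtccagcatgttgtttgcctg
Of 11 promoters listed for the 8 genes, AGGTCA stood in 4, GAGGAA in 4, and CACCC in 8. Of all 32851 promoters of 300 bases, 16.3% held AGGTCA, 28.3% held GAGGAA, and 57.5% held CACCC. The promoters with AGGTCA were 1 of Eno3, 1 of Ace, and 2 of Pparg. More than 1 promoter is listed for Pparg, and only 1 is shown. Of those not shown, the window starting at 115360894 held AGGTCA and CACCC, and that starting at 115421816 held none of the marked sequences. These letters describe the windows and show no binding.

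The first comparison asked how far these genes separate the subsets in each genotype. They were chosen as markers of Ly6C low monocytes with earlier results known, so a higher level in that subset only checks their label. In WT mice, all 8 genes were higher in Ly6C low than in Ly6C hi monocytes, and in each of them the lowest Ly6C low library lay above the highest Ly6C hi library. Of all 11042 genes tested, 8.46% were called higher in Ly6C low WT monocytes. Over the 8 genes the log2 fold changes had a median of 2.46, and over all genes of -0.07. Of all genes, 33.8% did not overlap between the WT subsets. In Slc29a3-/- Tlr7-/- mice, all 8 were again higher, against 9.64% of all genes, with a median of 2.32. In Slc29a3-/- mice, 6 of the 8 were higher, against 18.5% of all genes, with a median of 2.56. The 2 that were not called were Cd9 and Pglyrp1. The subsets did not overlap for 7 of the 8 genes in Slc29a3-/- mice, 1 of them (Pglyrp1) lower in Ly6C low, and for 7 of the 8 in Slc29a3-/- Tlr7-/- mice, against 48.7% and 24.7% of all genes. With WT replicate 4 alone as WT, where fewer of all genes were called too, Ace, Spn, and Pglyrp1 were not called in WT mice. Their log2 fold changes were then 2.17, 1.74, and 1.36, against 2.24, 1.49, and 0.98 with all 4 libraries.

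**Figure D1:**
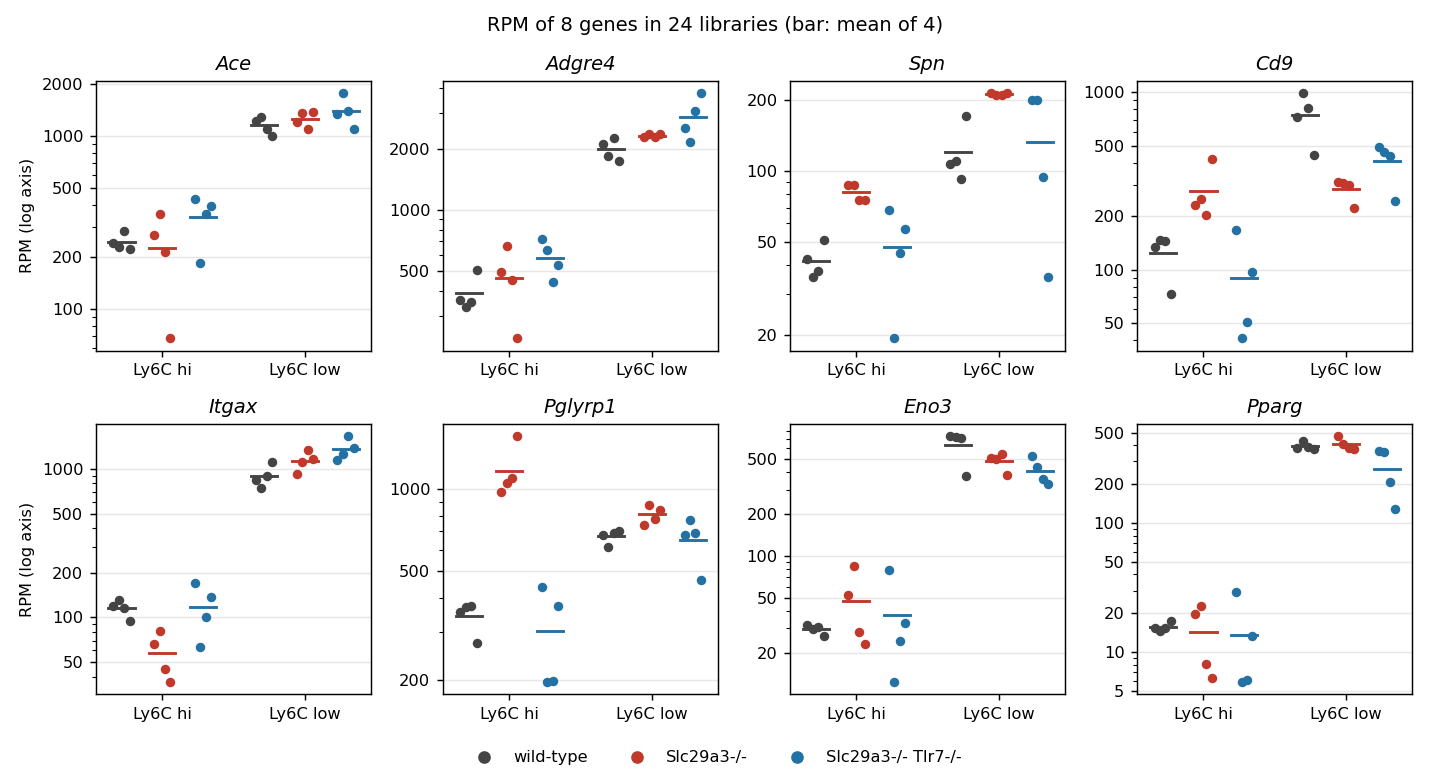
RPM (log axis) of the 8 genes in each of the 24 libraries, by subset and genotype. Points are libraries and bars are means of 4. Apart from Cd9, Pglyrp1, and 1 Slc29a3-/- Tlr7-/- library of Spn, the Ly6C low libraries of a genotype lie above all its Ly6C hi libraries.

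The widest differences between the subsets were those of Pparg and Eno3. Pparg (chromosome 6, 115360951 to 115490399, plus strand) encodes PPARγ, a nuclear receptor that responds to fatty acids and controls genes of lipid uptake and storage. In WT mice it was read at 15.4, 14.7, 15.3, and 17.4 RPM in Ly6C hi and at 378, 432, 387, and 376 RPM in Ly6C low monocytes. The WT libraries of a subset lay close together and the subsets lay far apart, with a log2 fold change of 4.56 ± 0.39 (SE, 23.6-fold, adjusted P = 2.2e-09 by limma). The log2 fold change between the subsets was 4.91 ± 0.39 in Slc29a3-/- and 4.33 ± 0.39 in Slc29a3-/- Tlr7-/- mice (adjusted P by limma, 1.9e-10 and 3.5e-09). Within the Ly6C hi subset, the mutant libraries spread more widely than the WT ones, from 6.35 to 22.7 RPM in Slc29a3-/- and from 5.93 to 29.3 RPM in Slc29a3-/- Tlr7-/- monocytes.

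Eno3 (chromosome 11, 70657202 to 70662513, plus strand) encodes β-enolase, the muscle form of a glycolytic enzyme. It was read at 31.8, 29.4, 30.7, and 26.2 RPM in Ly6C hi and at 727, 721, 712, and 375 RPM in Ly6C low WT monocytes. Replicate 4, the low one of the Ly6C low libraries, was still far above every Ly6C hi library. The log2 fold change between the subsets was 4.33 ± 0.38 in WT (20.1-fold), 3.51 ± 0.38 in Slc29a3-/-, and 3.72 ± 0.38 in Slc29a3-/- Tlr7-/- mice (adjusted P by limma, 4.3e-09, 4.5e-08, and 3.5e-08).

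Among the surface proteins, Itgax (chromosome 7, 128129547 to 128150657, plus strand) encodes CD11c, the αX chain of a β2 integrin. It was read at 120.3, 131, 116, and 94.8 RPM in Ly6C hi and at 835, 744, 892, and 1115 RPM in Ly6C low WT monocytes. The subsets did not overlap in any genotype, and the log2 fold change was 2.94 ± 0.24 in WT (7.67-fold), 4.34 ± 0.24 in Slc29a3-/- (20.2-fold), and 3.59 ± 0.24 in Slc29a3-/- Tlr7-/- mice (12-fold). All 3 differences were called (adjusted P by limma, 1.3e-09, 4.2e-13, and 2.8e-11).

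Ace (chromosome 11, 105967945 to 105989964, plus strand) encodes angiotensin-converting enzyme, a membrane peptidase that makes angiotensin II. In WT mice it was read at 240.4, 230.1, 285, and 223 RPM in Ly6C hi and at 1218, 1297, 1099, and 1004 RPM in Ly6C low monocytes. The log2 fold change was 2.24 ± 0.32 in WT, 2.70 ± 0.32 in Slc29a3-/-, and 2.08 ± 0.32 in Slc29a3-/- Tlr7-/- mice (adjusted P by limma, 6.7e-06, 2.0e-07, and 1.6e-05). Adgre4 (chromosome 17, 55749984 to 55853662, plus strand) encodes an adhesion receptor with epidermal growth factor repeats, related to F4/80. It was read at 359.9, 332, 354, and 505 RPM in Ly6C hi and at 2100.0, 1842, 2246, and 1747 RPM in Ly6C low WT monocytes. The log2 fold change was 2.37 ± 0.23 in WT, 2.43 ± 0.23 in Slc29a3-/-, and 2.30 ± 0.23 in Slc29a3-/- Tlr7-/- mice (adjusted P by limma, 2.0e-08, 4.4e-09, and 2.2e-08). For both genes, the Ly6C low libraries of each genotype lay above all its Ly6C hi libraries.

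Spn (chromosome 7, 127132232 to 127137823, minus strand) encodes CD43, a heavily glycosylated sialomucin used to identify nonclassical monocytes by flow cytometry. It was read at 42.2, 35.3, 37.6, and 51.0 RPM in Ly6C hi and at 107, 110.3, 92.7, and 173 RPM in Ly6C low WT monocytes. The log2 fold change was 1.49 ± 0.38 in WT, 1.38 ± 0.38 in Slc29a3-/-, and 1.31 ± 0.38 in Slc29a3-/- Tlr7-/- mice (adjusted P by limma, 0.0041, 0.0052, and 0.0099). In Slc29a3-/- Tlr7-/- mice the subsets overlapped, because Ly6C low replicate 4 was read at 35.3 RPM and the highest Ly6C hi library at 68.5 RPM. Without Ly6C hi replicate 2 of these mice, read at 19.4 RPM, the log2 fold change was 0.94 and was not called (adjusted P = 0.051 by limma), and neither was it in the model of the 2 groups alone (adjusted P = 0.12 by limma).

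Cd9 and Pglyrp1 were called between the subsets in WT and Slc29a3-/- Tlr7-/- mice but not in Slc29a3-/- mice. Cd9 (chromosome 6, 125460266 to 125494791, minus strand) encodes a tetraspanin, a membrane protein that organizes integrins and other partners. In WT mice it was read at 134, 146, 145, and 73.1 RPM in Ly6C hi and at 719.9, 985, 817, and 442 RPM in Ly6C low monocytes, a log2 fold change of 2.55 ± 0.34 (5.88-fold, adjusted P = 2.6e-06 by limma). In Slc29a3-/- mice it was read at 231, 250.4, 204, and 418 RPM in Ly6C hi and at 311, 309, 301, and 222 RPM in Ly6C low monocytes. These libraries overlapped, and the log2 fold change was 0.10 ± 0.34 (adjusted P = 0.85 by limma). In Slc29a3-/- Tlr7-/- mice it was read at 168, 41.0, 51.0, and 97.5 RPM in Ly6C hi and at 491, 459, 435, and 242 RPM in Ly6C low monocytes, which again did not overlap (log2 fold change 2.34 ± 0.34, adjusted P = 7.9e-06 by limma).

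Pglyrp1 (chromosome 7, 18871331 to 18890459, plus strand) encodes a secreted protein that binds bacterial peptidoglycan and is also stored in neutrophil granules. In WT mice it was read at 356, 369, 373, and 274 RPM in Ly6C hi and at 679, 615, 691, and 704 RPM in Ly6C low monocytes, a log2 fold change of 0.98 ± 0.21 (1.97-fold, adjusted P = 9.8e-04 by limma). In Slc29a3-/- mice it was read at 971, 1049.5, 1096, and 1557 RPM in Ly6C hi and at 741, 878, 775, and 837 RPM in Ly6C low monocytes. The order of the subsets was the opposite of that in WT mice, with no overlap, but the difference was not called (log2 fold change -0.51 ± 0.21, adjusted P = 0.059 by limma). It was called lower with TMM or RLE scaling of the libraries (-0.62 and -0.61, adjusted P by limma, 0.025 and 0.028) and without Ly6C hi replicate 1 (-0.59, adjusted P = 0.048 by limma). In Slc29a3-/- Tlr7-/- mice the levels were 438, 197, 199, and 374 RPM in Ly6C hi and 681, 767, 688, and 463 RPM in Ly6C low monocytes, with a log2 fold change of 1.17 ± 0.21 (adjusted P = 1.3e-04 by limma).

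**Figure D2:**
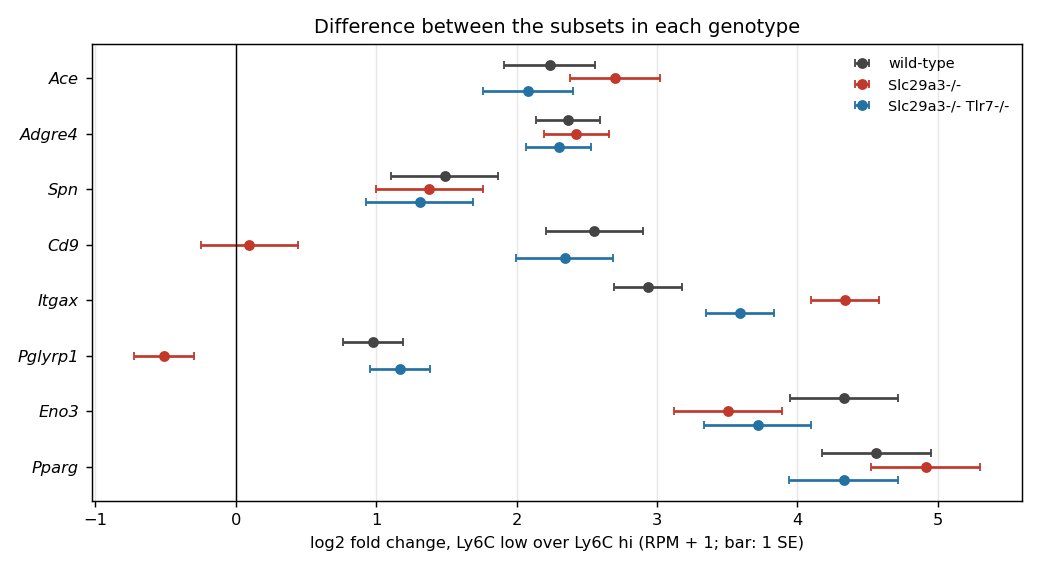
Log2 fold change of Ly6C low over Ly6C hi monocytes for the 8 genes (horizontal axis, RPM + 1), with 1 SE, in WT, Slc29a3-/-, and Slc29a3-/- Tlr7-/- mice. Cd9 (0.10) and Pglyrp1 (-0.51) in Slc29a3-/- mice are the points near or below 0.

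In a model of all 24 libraries, the effect of Slc29a3 loss differed between the subsets for 3 of the 8 genes, against 8.76% of all genes. Relative to WT, the effect in Ly6C low minus that in Ly6C hi monocytes was -2.46 ± 0.49 for Cd9, -1.49 ± 0.30 for Pglyrp1, and 1.40 ± 0.34 for Itgax on the log2 scale (adjusted P by limma, 0.0020, 0.0025, and 0.011). The median over all genes was 0.15. Slc29a3-/- Tlr7-/- mice lack Slc29a3 too, so comparing Slc29a3-/- mice with them contrasts Tlr7, and it uses the same Slc29a3-/- libraries. For that contrast, the effect in Ly6C low minus that in Ly6C hi monocytes was -2.25 ± 0.49 for Cd9 and -1.68 ± 0.30 for Pglyrp1 (adjusted P by limma, 0.0052 and 0.0012). These 2 genes were called, against 8.94% of all genes. Without Slc29a3-/- Tlr7-/- Ly6C hi replicate 2, Itgax was called too, at 1.01 (adjusted P = 0.037 by limma). Between Slc29a3-/- Tlr7-/- and WT mice, 0 of the 8 genes were called by limma, and 0 at the unadjusted P, against 0.0634% of all genes at the adjusted P and 7.8% at the unadjusted P. With WT replicate 4 alone as WT, none of the 8 genes was called in the first of these tests, and 23 of all 10796 genes were. The values were then -2.48 for Cd9, -1.87 for Pglyrp1, and 0.80 for Itgax (adjusted P by limma, 0.19, 0.15, and 0.76).

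The second comparison asked how Slc29a3 loss, with and without Tlr7, moved these genes within Ly6C hi monocytes. Relative to WT, 3 of the 8 genes were higher and 1 was lower in Slc29a3-/- mice. Of all 10561 genes tested, 22.4% were called, 8.15% higher and 14.3% lower, and the median was -0.14 (-0.01 after TMM scaling). The 4 called genes did not overlap between the groups, against 33.7% of all genes. Pglyrp1 was higher in all 4 Slc29a3-/- libraries than in any WT library, at 1168 ± 264 RPM against 343 ± 46.3 RPM (SD, n = 4 each), with a log2 fold change of 1.75 ± 0.24 (adjusted P = 3.2e-04 by limma). Cd9 was also higher without overlap, at 276 ± 96.5 RPM against 125 ± 34.9 RPM (SD, n = 4 each), with a log2 fold change of 1.13 ± 0.37 (adjusted P = 0.035 by limma).

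Spn was read at 87.0, 87.6, 75.6, and 75.1 RPM in the Slc29a3-/- Ly6C hi libraries, all above the WT libraries (log2 fold change 0.96 ± 0.28, adjusted P = 0.021 by limma). Itgax went the other way, at 66.4, 80.7, 45.1, and 37 RPM, all below the WT libraries (-1.05 ± 0.28, adjusted P = 0.012 by limma). Against WT replicate 4 alone, the log2 fold changes were 2.06 for Pglyrp1, 1.84 for Cd9, 0.66 for Spn, and -0.78 for Itgax. Of these only Pglyrp1 was then called, in a setting where calls over all genes fell too. Without the filter on low values, Spn and Cd9 were not called (adjusted P by limma, 0.054 and 0.090). Nor was Cd9 without the intensity trend, or Spn in the model of all 24 libraries (adjusted P by limma, 0.051 and 0.066). Cd9 was also lost when any 1 of the 4 WT libraries or Slc29a3-/- replicate 2 or 4 was left out (adjusted P by limma, 0.051 to 0.11), and Spn when WT replicate 2 or 3 was (0.063 and 0.055).

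Ace, Adgre4, Eno3, and Pparg were not called between Slc29a3-/- and WT Ly6C hi monocytes, and their libraries overlapped. Slc29a3-/- replicate 4 was the lowest of its group for 6 of the 8 genes, among them Ace at 67.7 RPM, and the highest for Cd9 and Pglyrp1. Replicate 2 was the highest for the other 6.

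Between Slc29a3-/- and Slc29a3-/- Tlr7-/- Ly6C hi monocytes, the same 4 genes were called in the same directions, against 17.2% of all genes (9% higher and 8.22% lower). The same Slc29a3-/- libraries enter both comparisons. The log2 fold change was 2.02 ± 0.24 for Pglyrp1, 1.78 ± 0.37 for Cd9, 0.90 ± 0.28 for Spn, and -1.0 ± 0.28 for Itgax (adjusted P by limma, 1.4e-04, 0.0043, 0.037, and 0.021). Slc29a3-/- Tlr7-/- replicate 1 was the highest library of its group for all 8 genes, and replicate 2 the lowest for 7 of the 8. Without Slc29a3-/- Tlr7-/- replicate 2, Spn had a log2 fold change of 0.53 and was not called. Spn was also lost without Slc29a3-/- Tlr7-/- replicate 3 or any 1 Slc29a3-/- library (log2 fold changes 0.86 to 0.94). At its full log2 fold change of 0.90, Spn was not called without the filter on low values, without the intensity trend, in the model of the 2 groups alone, in that of all 24 libraries, or with WT replicate 4 alone as WT (adjusted P by limma, 0.093, 0.052, 0.067, 0.10, and 0.068). Itgax was lost without Slc29a3-/- replicate 3 or 4 or Slc29a3-/- Tlr7-/- replicate 1 or 4 (-0.91 to -0.80), and without the filter (adjusted P = 0.060 by limma). Between Slc29a3-/- Tlr7-/- and WT Ly6C hi monocytes, 0 of the 8 genes were called by limma, and 0 at the unadjusted P with the same fold, against 1.42% of all genes at the adjusted P and 12.6% at the unadjusted P. The log2 fold changes ranged from -0.64 for Cd9 to 0.58 for Adgre4, whose unadjusted P was 0.042 at a 1.49-fold change.

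**Figure D3:**
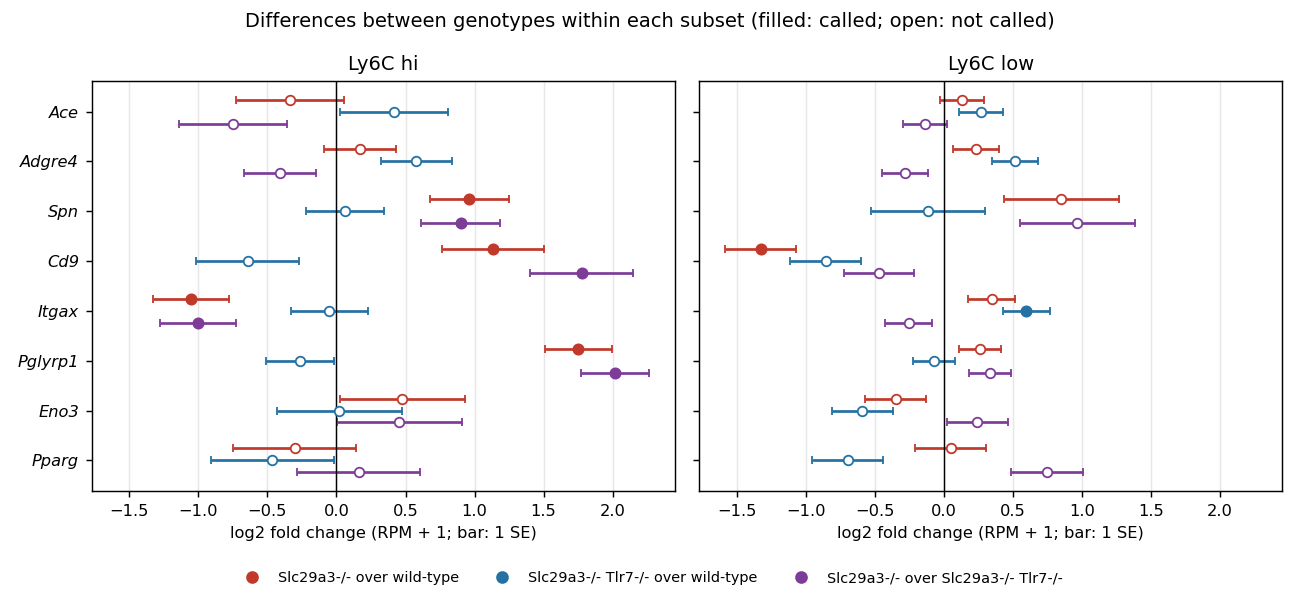
Log2 fold change between genotypes for the 8 genes in Ly6C hi and Ly6C low monocytes (horizontal axis, RPM + 1), with 1 SE. Filled points were called and open points were not. In Ly6C hi monocytes the filled points are Spn, Cd9, Itgax, and Pglyrp1 for Slc29a3-/- against each other genotype. In Ly6C low monocytes they are Cd9 for Slc29a3-/- over WT and Itgax for Slc29a3-/- Tlr7-/- over WT.

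Markers of other cells moved with the Ly6C hi calls. Of 10 neutrophil markers, 7 were higher and 2 (Retnlg and Mmp8) were lower in Slc29a3-/- than in WT Ly6C hi monocytes. Their summed level was 24857 to 33996 RPM in WT, 76643 to 141820.0 RPM in Slc29a3-/-, and 13543 to 40685 RPM in Slc29a3-/- Tlr7-/- libraries. Ly6g, which defines neutrophils and was used to remove them, was read at 17.9 to 33.5, 59.2 to 138.5, and 2.77 to 39.8 RPM in the same order. Of 6 granulocyte-monocyte progenitor markers, 4 were higher, and their sum was 310.4 to 407, 741 to 2595, and 317 to 834 RPM. Slc29a3-/- replicate 4 had both the highest neutrophil sum and the highest Pglyrp1 and Cd9. Bulk libraries do not show whether these markers came from such cells or from the sorted monocytes. The part of neutrophils and progenitors in the levels of Pglyrp1, Cd9, and Spn was not tested.

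With Itgax, all 7 conventional dendritic cell markers were lower in Slc29a3-/- than in WT Ly6C hi monocytes, and so were all 4 plasmacytoid dendritic cell markers. The conventional dendritic cell sum was 101 to 158 RPM in WT, 21.8 to 44 RPM in Slc29a3-/-, and 111 to 167 RPM in Slc29a3-/- Tlr7-/- libraries. Dendritic cells carry CD11c too, and their part in the Itgax level was not tested. In bulk samples, fewer cells of a type and less RNA per cell cannot be told apart. T cell and NK cell markers were likewise lower, 4 of 4 each. Of the other marker lists, 1 of 6 platelet markers was higher, 4 of 9 red pulp macrophage markers were lower, and of 4 eosinophil markers 1 was higher and 2 were lower. Cd79b, the 1 B cell marker tested, was lower, and the B cell sum was 13.9 to 20.7 RPM in Slc29a3-/- and 29 to 38.2 RPM in WT libraries. With WT replicate 4 alone as WT, of all these markers 1 of conventional and 2 of plasmacytoid dendritic cells, 1 of T cells, and 1 of red pulp macrophages were still called, all lower, and the log2 fold change of Retnlg turned from -2.11 to 0.51.

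**Figure D4:**
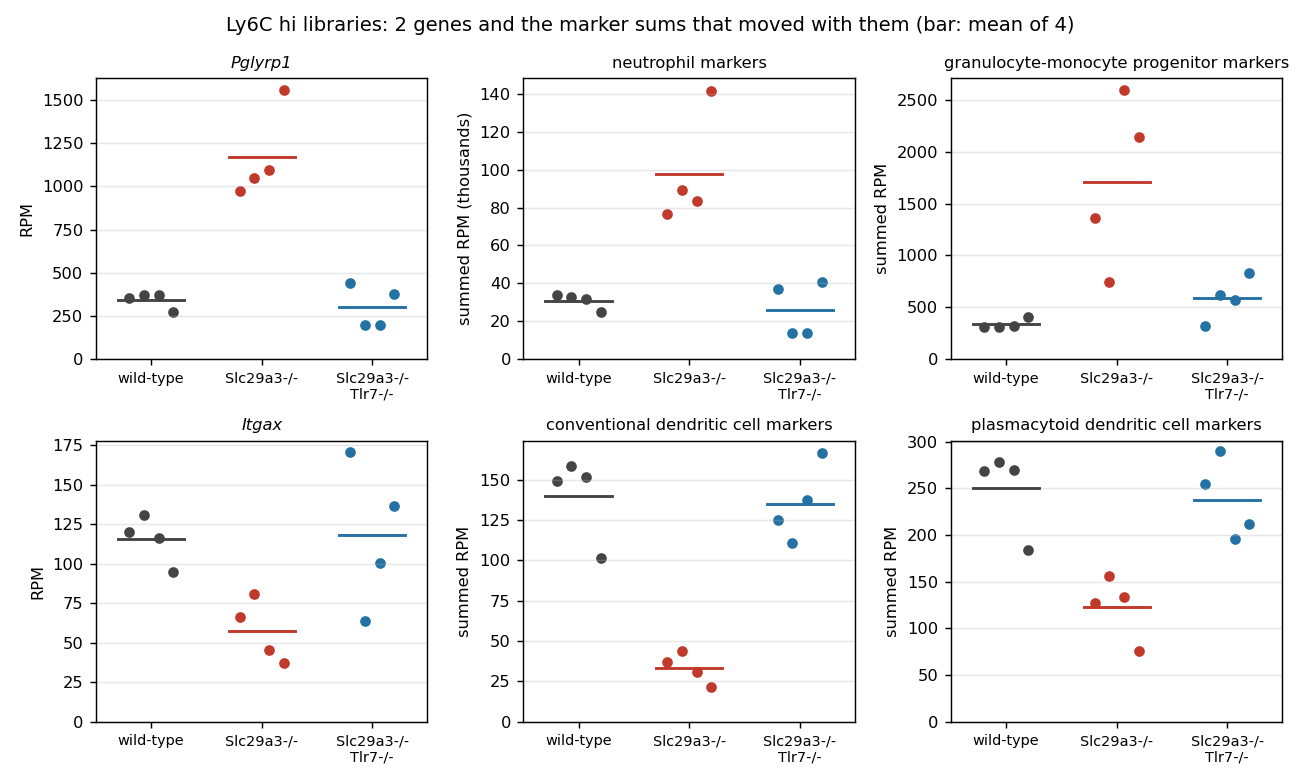
RPM of Pglyrp1 and Itgax and the summed RPM of marker genes of neutrophils, granulocyte-monocyte progenitors, and conventional and plasmacytoid dendritic cells in the 12 Ly6C hi libraries. Points are libraries and bars are means of 4. In Slc29a3-/- libraries Pglyrp1 and the neutrophil sum lie above those of both other genotypes, and the conventional dendritic cell sum lies below them.

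The third comparison asked the same within Ly6C low monocytes. Between Slc29a3-/- and WT, only Cd9 was called, against 4.43% of all 10317 genes tested. All 4 Slc29a3-/- libraries were lower than any WT library, at 286 ± 42.8 RPM against 741 ± 227 RPM (SD, n = 4 each), with a log2 fold change of -1.33 ± 0.26 (adjusted P = 0.0094 by limma). Against WT replicate 4 alone, read at 442 RPM, it was -0.64 and was not called (adjusted P = 0.69 by limma). Spn was read at 215, 211, 210.0, and 214 RPM, all above the WT libraries, but its log2 fold change of 0.85 ± 0.42 was not called (adjusted P = 0.27 by limma). It was called in the model of only these 2 groups (adjusted P = 0.010 by limma) and without Slc29a3-/- Tlr7-/- replicate 4 (adjusted P = 0.036 by limma). The Slc29a3-/- Tlr7-/- libraries that add to its spread in the larger model ran from 35.3 to 202 RPM. Adgre4 and Pglyrp1 also lay above WT without overlap, by log2 fold changes of 0.23 and 0.26 that were not called, and 17.7% of all genes did not overlap between these groups.

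Between Slc29a3-/- Tlr7-/- and WT Ly6C low monocytes, only Itgax was called, against 8.31% of all genes. It was read at 1138, 1253, 1649.7, and 1381 RPM in Slc29a3-/- Tlr7-/- libraries, all above the WT libraries, a log2 fold change of 0.60 ± 0.17 (1.51-fold, adjusted P = 0.045 by limma). Against WT replicate 4 alone, read at 1115 RPM, the log2 fold change was 0.27 (adjusted P = 0.64 by limma). The Itgax call was also lost in the model of all 24 libraries, in that of the 2 groups alone, without the intensity trend, and without the filter (adjusted P by limma, 0.089, 0.13, 0.061, and 0.088), and when WT replicate 1, 2, or 3, Slc29a3-/- Tlr7-/- replicate 3 or 4, or any 1 Slc29a3-/- library was left out (log2 fold changes 0.50 to 0.60). Cd9, Eno3, and Pparg had log2 fold changes of -0.86 ± 0.26, -0.59 ± 0.22, and -0.70 ± 0.26, which passed the unadjusted P with Itgax (4 of 8 genes, against 20.7% of all genes) but not the adjusted one. Without WT replicate 4, Cd9 and Eno3 were called at the adjusted P (-1.08 and -0.83), and without Slc29a3-/- Tlr7-/- replicate 1 or 2, Cd9 (-0.96 and -0.93) and Pparg (-0.89 and -0.88) were.

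Within Slc29a3-/- Tlr7-/- Ly6C low monocytes the libraries differed from each other. Pparg was read at 361, 354, 207, and 129 RPM, all below the WT libraries, and Spn at 201, 202, 94.6, and 35.3 RPM. Replicate 4 was the lowest for 6 of the 8 genes and the highest for Adgre4, at 3748 RPM. Its red pulp macrophage markers summed to 1712 RPM, against 575 to 964 RPM in the other 3. Their part in the spread of these genes was not tested.

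Between Slc29a3-/- and Slc29a3-/- Tlr7-/- Ly6C low monocytes, 0 of the 8 genes were called by limma at the adjusted P, against 1.93% of all genes. At the unadjusted P 2 were called, Spn (0.97 ± 0.42) and Pparg (0.75 ± 0.26), against 13.7% of all genes. Neither overlapped between the groups, and 11.9% of all genes did not.

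Other cell markers also moved in the Ly6C low subset. All 8 neutrophil markers tested were lower in Slc29a3-/- Tlr7-/- than in WT mice, with sums of 2.70 to 50.8 RPM against 67.8 to 2496 RPM. Ly6g was at 0 in all 4 Slc29a3-/- Tlr7-/- Ly6C low libraries. The platelet marker sum was 48.3 to 63.1 RPM in WT and 206 to 270.3 RPM in Slc29a3-/- libraries, and Itgb3 was the 1 platelet marker of 4 tested that was called. Alas2, an enzyme of heme synthesis in erythroid cells, was read at 16.8 to 23.0 RPM in Slc29a3-/- and 0 to 3.22 RPM in WT libraries (log2 fold change 3.71, called higher). The red pulp macrophage sum was 903 to 1428 RPM in Slc29a3-/- and 682 to 766 RPM in WT libraries, with 2 markers called higher and 2 lower. In Slc29a3-/- mice 3 of 7 conventional dendritic cell markers and 2 of 4 NK cell markers were lower than in WT, and in Slc29a3-/- Tlr7-/- mice all 4 NK cell markers were. With WT replicate 4 alone as WT, Itgb3 was the only gene of these lists still called in either mutant, and it was higher in Slc29a3-/- mice (adjusted P = 0.026 by limma). The low end of the WT neutrophil range, 67.8 RPM, is that of WT replicate 4. The part of these cells in the levels of Cd9 and Itgax was not tested.

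Ordered by mean level over the 6 groups, the 3 Ly6C low groups stood first for Ace, Adgre4, Spn, Itgax, Eno3, Pparg, and Cd9. Of 40 pairs of neighbours in these orders, 25 overlapped. For Ace the order within Ly6C low was Slc29a3-/- Tlr7-/- (1403 ± 278 RPM), Slc29a3-/- (1264 ± 129.7 RPM), and WT (1155 ± 129 RPM, SD, n = 4 each), and none of these neighbours differed beyond their spread. For Cd9 it was WT (741 RPM), Slc29a3-/- Tlr7-/- (407 RPM), and Slc29a3-/- (286 RPM), with overlap between each pair of neighbours, and the Slc29a3-/- Ly6C hi libraries (276 RPM) overlapped with the last of these. Pglyrp1 was the exception: Slc29a3-/- Ly6C hi stood first (1168 RPM), apart from Slc29a3-/- Ly6C low (808 RPM), which in turn lay apart from WT Ly6C low (672 RPM).

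The genes with the most similar pattern were found by the root mean square difference between log2 group means, centred over the 6 groups, among 7492 genes with a mean of at least 10 RPM. For Ace these were Cd300c2 (0.11) and Krt80 (0.11), for Adgre4 Efcab9 (0.15) and Ace (0.17), and for Spn Cpd (0.19) and Slc16a3 (0.26). For Itgax they were Smagp (0.27) and Ifitm1 (0.34), for Eno3 Azin2 (0.27) and Gjb2 (0.30), and for Pparg Tgfbr3 (0.26) and Phlda3 (0.29). For Pglyrp1 they were Cd81 (0.21), a tetraspanin gene, and Hsd11b1 (0.26), and for Cd9 Fmnl3 (0.39) and Cyfip2 (0.44). Among the 8 genes, Ace and Adgre4 were the most alike (0.17) and Pglyrp1 and Pparg the least (2.14).

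Most other genes of Ly6C low monocytes followed the sort in each genotype. Cx3cr1, a marker of these cells, overlapped between the WT subsets, at 69.7 to 143 RPM in Ly6C hi and 66.8 to 292 RPM in Ly6C low. It also overlapped in Slc29a3-/- Tlr7-/- mice (63.8 to 198 RPM and 51.9 to 229 RPM), but not in Slc29a3-/- mice (41.0 to 134 RPM and 178 to 210 RPM). Of 14 such genes, 12 were higher in Ly6C low than in Ly6C hi monocytes in WT, 14 in Slc29a3-/-, and 13 in Slc29a3-/- Tlr7-/- mice, and none was lower. Cd300e, an activating receptor, had the widest difference in WT (log2 fold change 6.99 ± 0.42), followed by the scavenger receptor Cd36 (4.82 ± 0.28) and by Fcgr4 (4.44 ± 0.16), which was used in the sort. Within Ly6C hi monocytes of Slc29a3-/- mice relative to WT, Cd300e and Fcgr4 were higher (1.62 ± 0.53 and 0.62 ± 0.18), and Nr4a1, Klf2, and Bcl2 were lower (-1.83 ± 0.48, -1.25 ± 0.25, and -1.24 ± 0.37). None of these 5 was called against WT replicate 4 alone, where the log2 fold change was -0.24 for Nr4a1, -0.49 for Klf2, and 0.18 for Bcl2. Nr4a1 was read at 1804, 1797, 1765, and 409 RPM in the WT libraries and at 421, 579, 361, and 164 RPM in the Slc29a3-/- ones, so that only WT replicate 4 overlapped with them. Within Ly6C low monocytes, Fcgr4 was higher in Slc29a3-/- (1.83 ± 0.15) and in Slc29a3-/- Tlr7-/- mice (1.09 ± 0.15) than in WT, and Cd36 was lower in Slc29a3-/- mice (-1.47 ± 0.26). Of these, Fcgr4 in Slc29a3-/- mice was still called with WT replicate 4 alone as WT. Between the WT subsets, 7 of the 14 genes then were, among them Cd300e, Cd36, and Fcgr4. None of the differences between a mutant and WT that are given for relatives, partners, and targets in the next paragraphs was called in that setting, in which Pglyrp2 did not pass the filter in Ly6C hi monocytes. Between the WT subsets, Fabp4, Cd36, Cd82, Cd63, and Ear6 were, and Nr1h3, Lpl, Itgal, Itgb2, and Adgre5 were not.

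Of 8 tested targets of PPARγ, 5 were higher and 1 was lower in Ly6C low than in Ly6C hi WT monocytes, beside Pparg itself. Fabp4, a fatty acid carrier, was higher by 5.46 ± 0.41 on the log2 scale, Cd36, which stands in both lists, by 4.82 ± 0.28, and Nr1h3, the liver X receptor α gene, by 1.56 ± 0.25, whereas the lipase gene Lpl fell by 1.24 on the same scale. In Slc29a3-/- mice the count was again 5 higher and 1 lower, and in Slc29a3-/- Tlr7-/- mice 3 higher and 1 lower. Fabp4 and the lipid droplet gene Plin2 were lower in Slc29a3-/- Tlr7-/- than in WT Ly6C low monocytes (-0.91 ± 0.25 and -0.71 ± 0.13). Rxra, the gene for the RXRα partner of PPARγ, was lower in Slc29a3-/- than in WT Ly6C hi monocytes (-0.95 ± 0.16), and 1 of 3 tested genes of its family was called there.

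Relatives and partners of the surface genes gave mixed results. Of 8 tetraspanins and Cd9 partners, 2 were higher and 3 were lower in Ly6C low than in Ly6C hi WT monocytes, with Cd82 higher (2.59 ± 0.21) and Cd63, a tetraspanin of lysosomes and granules, lower (-3.31 ± 0.39). Cd63 and Cd81 were the 2 of these 8 that were called between Slc29a3-/- and WT Ly6C hi monocytes, both higher (1.6 ± 0.38 and 1.33 ± 0.23), as Cd9 was. Among the β2 integrin chains, Itgal and the shared β2 chain Itgb2 were higher in Ly6C low WT monocytes (1.14 ± 0.20 and 1.07 ± 0.16), 2 of 4 tested. Itgad, which encodes the αD chain, was higher in Slc29a3-/- than in WT Ly6C low monocytes (2.07 ± 0.30), at 10.5 ± 4.28 RPM against 1.59 ± 0.184 RPM (SD, n = 4 each).

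Of the other families, Adgre5 was the 1 of 2 adhesion receptors higher in Ly6C low than in Ly6C hi WT monocytes (0.70 ± 0.22), and Adgre1, the F4/80 gene, was higher in Slc29a3-/- than in WT Ly6C low monocytes (1.11 ± 0.30). Ear6, the 1 Ear gene that could be tested, was higher in Ly6C low WT monocytes (1.95 ± 0.32). Pglyrp2, the 1 tested relative of Pglyrp1, was lower in Slc29a3-/- than in WT Ly6C hi monocytes (-1.84 ± 0.41), the opposite of Pglyrp1. Its levels were low, at 1.48 to 6.38 RPM in WT and 0.079 to 0.716 RPM in Slc29a3-/- libraries, the latter near the counting floor. None of 3 sialomucins was called between the WT subsets, or between Slc29a3-/- and WT Ly6C hi monocytes. None of 7 genes of the angiotensin system beside Ace passed the filter on low values, nor did Eno2, and Eno1 was not analysed here.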

How the data were processed

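Each library was made with the Ion AmpliSeq Transcriptome Mouse kit, which reads 1 amplicon per gene. The authors deposited 1 table of reads per amplicon, scaled to 1000000 per library (RPM). The methods of the authors name Cutadapt, STAR on mm10, HTSeq, and DESeq2, and the labels name the AmpliSeqRNA plug-in of Torrent Suite. Which step wrote the deposited RPM values is not given in the sources used here. Entries of 0.0001 stand for 0 reads and were set to 0. Spreadsheet dates replaced 27 gene names, which were repaired from the amplicon names. Depth was estimated from the even step between the lowest values (100.0% of values under 5 RPM were whole multiples within 0.1 read). Totals were 999999 to 1000001 RPM.

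From these values, log2(RPM + 1) was fitted with limma 3.58.1 in R 4.3.3 with an intensity trend. Amplicons with at least 1 RPM in at least 4 libraries of the fit were kept. Genotypes were compared within a subset (12 libraries), and subsets and interactions in all 24 libraries. The fit was tested on simulated data. Count tests, planned as alternatives for the case that reads could be recovered, were not run, since the table gives RPM and reads were not rebuilt from it. Alternatives were TMM and RLE scaling, no filter, a pseudocount of 0.1, a stricter filter (mean of 10 RPM or more), no intensity trend, the unadjusted P, other sets of libraries in the fit, a replicate block, each library left out, and WT replicate 4 alone as WT (extended to relatives and markers after seeing the data). The members, gene lists, tests, and alternatives were chosen with earlier results of these data known.

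Replicate numbers were checked for pairing by the correlation of deviations from the group means. Ly6C hi and Ly6C low WT libraries of the same number correlated at 0.32, 0.26, 0.26, and 0.62, whereas those of Slc29a3-/- mice (-0.08 to 0.26) and Slc29a3-/- Tlr7-/- mice (-0.46 to 0.34) and those across genotypes did not all correlate. In WT, the same-numbered library was the best match for replicates 1 and 4 but not for replicates 2 and 3. WT replicate 4 also stood apart in both subsets, so these correlations cannot show pairing. The reported fits between the subsets used no block, and a block by number changed no call between the WT subsets.

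Named beside the 9 members were, for each, the 2 genes with the nearest pattern, and, by counts with up to 4 examples a list, fixed lists of relatives, partners, targets, and cell type markers. Some marker genes are not reported here. Gene positions are those of GENCODE vM21 on mm10, and promoter sequences are those of RefSeq on GRCm38.p6. Figures were drawn with matplotlib 3.10.9.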

Additional observations from a re-analysis of the deposited data

Results flagged for a closer look

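In 48 groups of 4 libraries (8 genes in 6 groups), 4 libraries lay far from the other 3 by Dixon's test, and chance alone marks about 1 in 20 groups. Adgre4 in WT Ly6C hi replicate 4 was read at 505 RPM, above the others, and Cd9 in the same library at 73.1 RPM, below the others. Eno3 in WT Ly6C low replicate 4 was read at 375 RPM and Cd9 in Slc29a3-/- Ly6C low replicate 4 at 222 RPM, both below the others. Of these 4 values, 3 belong to WT replicate 4, the WT library that stood apart in both subsets.

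The effect of Slc29a3 loss relative to WT, taken as Ly6C low minus Ly6C hi, was -2.46 for Cd9, -1.49 for Pglyrp1, and 1.40 for Itgax on the log2 scale, each called by limma as an interaction. Slc29a3-/- and Slc29a3-/- Tlr7-/- mice both lack Slc29a3 and differ in Tlr7. Between them, the same difference between the subsets was -2.25 for Cd9 and -1.68 for Pglyrp1. Neutrophil and progenitor markers moved with the Ly6C hi side of Pglyrp1 and Cd9, and dendritic cell markers with that of Itgax, and their part in these differences was not tested.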

How the results depend on the processing

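Of the 123 counts of called genes recomputed under other settings, 108 stayed within 1.5 times the reported count. With WT replicate 4 alone as WT, the count went from 4 to 1 for Slc29a3-/- against WT in Ly6C hi, from 1 to 0 for each mutant against WT in Ly6C low, from 8 to 5 between the WT subsets, and from 3 to 0 for the interaction of Slc29a3-/- with WT. This setting leaves a single WT library, and the calls over all genes fell in each of these comparisons too. Without the filter on low values, in which more genes are tested, the counts were 2 for Slc29a3-/- against either other genotype in Ly6C hi and 0 for Slc29a3-/- Tlr7-/- against WT in Ly6C low. The last comparison also gave 0 without the intensity trend, with only its 2 groups, and with all 24 libraries, and 4 at the unadjusted P. Slc29a3-/- against WT in Ly6C low gave 2 with only its 2 groups, and Slc29a3-/- against Slc29a3-/- Tlr7-/- in Ly6C low gave 2 at the unadjusted P. For the other calls lost or gained here, the cause was not tested.

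With the replicate block, Slc29a3-/- Tlr7-/- against WT in Ly6C low gave 2, and the block changed no other count. Across genotypes the samples share only a number: same-numbered libraries of different genotypes correlated at -0.19 to 0.15, and in no pair of groups did all 4 correlate.

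With 1 library left out at a time, the counts ran from 2 to 4 for Slc29a3-/- against WT and 2 to 4 against Slc29a3-/- Tlr7-/- in Ly6C hi, 1 to 2 for Slc29a3-/- against WT and 0 to 4 for Slc29a3-/- Tlr7-/- against WT in Ly6C low, 6 to 7 and 7 to 8 between the subsets of the mutants, and 2 to 3 for the interaction of Slc29a3-/- with Slc29a3-/- Tlr7-/-. Signs changed for uncalled differences: Eno3 in Slc29a3-/- Tlr7-/- against WT Ly6C low was 0.11 against WT replicate 4 alone, and Cd9 between the Slc29a3-/- subsets was -0.015 with TMM, -0.0052 with RLE, and -0.030 to 0.31 with 1 library left out. The count tests (edgeR and DESeq2) planned as alternatives were not run, since the table gives RPM and reads were not rebuilt from it. The floors cover counting error only, whereas each SD and SE measures the spread between libraries.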
